A study of Homo sapiens with 6 samples.

Results

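The 10 genes described here are the Notch receptors NOTCH1, NOTCH2 and NOTCH3, the ligands JAG1, JAG2, DLL1 and DLL3, and the effectors HES1, HEY1 and NRARP. They were chosen by name, and all 10 are present among the 16720 named rows of the count table. The table holds RNA sequencing of Hep3B, an established human hepatocellular carcinoma (HCC) line, in 3 libraries labelled sgControl (genotype wild type) and 3 libraries labelled sgRFX6 (genotype RFX6 knockout). RFX6 is a winged helix transcription factor, and an earlier study named in the paper's discussion linked it to Notch in HCC. The paper adds that its own pathway analyses found no significance for related pathways, possibly through differences in cell lines and methods. The levels of the Notch genes in these 2 groups are described here. Both groups were cultured cells of the same line. The knockout cells had received the lentiCRISPRv2 vector, which carries Cas9 and a guide RNA, were selected with puromycin and were expanded from single cells. The control columns of the table are named for Cas9 and name no guide. The sources used here do not say whether the control cells were also expanded from single cells. An effect of the guide and one of the expansion cannot be told apart in these libraries. Whether the 3 libraries of a group came from separate clones or cultures is not given in the sources used here, so the p-values measure the spread between these libraries, which may be technical.

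Notch is a receptor at the cell surface that reads a ligand on the neighbouring cell. On contact with a Jagged (JAG) or Delta-like (DLL) ligand, the receptor is cut first by an ADAM protease and then by γ-secretase, and its intracellular domain moves to the nucleus, binds the DNA-binding protein RBPJ with a Mastermind (MAML) co-activator, and turns on target genes such as HES1, HEY1 and NRARP. In the liver, JAG1 acting on NOTCH2 is known for its part in the formation of the bile ducts.

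Of these genes, NOTCH1 was higher in the sgRFX6 libraries (2.12-fold, called in 12 of 16 other settings). DLL3, a low-level ligand, was counted 25, 146 and 28 times in sgControl and 7, 4 and 2 times in sgRFX6, and entered the test only through its sgControl libraries. Its log2 fold change was -3.59 with all libraries and -2.39 without sgControl library 2, where it was no longer called (edgeR adjusted p = 0.0661), and it was called in 7 of 16 other settings. No other receptor, ligand or effector among the 10 passed the test. The level of HES1, the best known target of the pathway, differed by 0.17 on the log2 scale with overlapping libraries, and HEY1 and NRARP lay on opposite sides of 0. Among 62 further genes of the pathway in the table, the protease FURIN was lower and the ubiquitin ligase DTX3L was higher.

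The guide of the knockout cells was RFX6 sg3, by the name carried by the knockout columns. It lies in exon 3 of 19 of RFX6, on the plus strand of GRCh38 at chr6:116880567-116880586, and is printed 5′ to 3′ with the adjacent protospacer motif (PAM) in capitals.
RFX6 sg3: gtgaaggagtttgcttaccaCGG
In the annotated transcripts of the 10 Notch genes, the closest site followed by an NGG motif differed from the guide by 6 bases in JAG2, 7 in NOTCH2, 9 in NOTCH1 and 10 in DLL3. Over the transcripts of all 73 pathway genes the closest sites had 6 to 10 mismatches. Introns and intergenic DNA were not searched.

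The promoters of HES1, the target gene, and of NOTCH1, the receptor that changed, are shown because the first holds the letters bound by RBPJ and the second does not. The RefSeq promoter set (GRCh38.p14) covers 250 bases before to 50 bases after each start site and had an entry for 7 of the 10 genes, all but DLL1, DLL3 and HEY1. The RBPJ core TGGGAA, on either strand, was found in 1 of the 7, HES1, and in 24% of 35116 promoters of this length. It occurs at positions -84 to -79 and -70 to -65 from the HES1 start, the first within the longer form GTGGGAA, which is found in 6.25% of promoters. The letters GTTGCC, one form of the half-site of the RFX family, were found in 0 of the 7 and in 12.2% of all promoters. Both sequences are the 250 bases before the start on the strand of the gene, chr3:194135898-194136147 (plus strand) and chr9:136546049-136546298 (minus strand), with matches to the RBPJ letters in capitals.
HES1: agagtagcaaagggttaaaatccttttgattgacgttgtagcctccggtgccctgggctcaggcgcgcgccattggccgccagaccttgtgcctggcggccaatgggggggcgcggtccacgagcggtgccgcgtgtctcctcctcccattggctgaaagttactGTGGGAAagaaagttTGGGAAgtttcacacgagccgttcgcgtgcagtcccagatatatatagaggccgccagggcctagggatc
NOTCH1: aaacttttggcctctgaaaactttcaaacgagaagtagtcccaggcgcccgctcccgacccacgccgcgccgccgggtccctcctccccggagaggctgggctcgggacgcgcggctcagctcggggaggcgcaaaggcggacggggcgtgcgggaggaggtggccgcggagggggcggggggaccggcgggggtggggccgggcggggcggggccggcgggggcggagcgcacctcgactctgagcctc
The 250 bases before NOTCH1 are 76% G and C, and those before HES1 are 59.2%. These matches describe letters only. The RefSeq start of NOTCH1 lies upstream of the GENCODE start, base 136545786 on chromosome 9, that is used for its position below. The bases next to the GENCODE start were not searched.

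The libraries held 16730374 to 25070770 counts on named genes. At this depth 3 counts correspond to 0.122 to 0.189 CPM, the count scaled to library size with TMM factors. Within a group the libraries differed beyond sampling noise, and the deviations from the group mean were set against the GC content of the transcripts across genes. The Spearman correlation was -0.565, 0.407 and 0.049 in sgControl libraries 1, 2 and 3 and 0.645, 0.719 and -0.848 in the sgRFX6 libraries. The targeted gene RFX6 (chr6:116877212-116932163) was at 5.64, 5.83 and 7.34 CPM in sgControl and at 3.43, 3.71 and 3.50 CPM in sgRFX6. Every knockout library was below every control library, with a log2 fold change of -0.82 (SE 0.26) that did not pass edgeR's quasi-likelihood test (adjusted p = 0.142). For its knockout cells the paper reports a check of RFX6 by PCR and western blot, and the RNA counts used here do not measure the protein. The groups are named by their labels below. Of the hepatocyte markers, HNF4A was between 109 and 161 CPM in the 6 libraries and ALB between 12.9 and 32.1 CPM, while TTR was under 1 CPM. The 8 hepatocyte markers summed to 236 to 271 CPM in sgControl and 199 to 214 CPM in sgRFX6. AFP, the fetal liver protein, was the only one called and rose by 2.82 on the log2 scale (edgeR adjusted p = 0.00254). APOB was lower without overlap, at 76.4, 60.6 and 62.8 CPM in sgControl and 19.3, 15.9 and 46.1 CPM in sgRFX6. Its log2 fold change was -1.29 (edgeR adjusted p = 0.116). HNF4A was also negative (-0.27), and the other hepatocyte markers were positive. Among markers of other cells, KDR and CD3E were at or under 3 counts in every library. Summed levels in sgControl and sgRFX6 were 712 to 1083 and 532 to 831 CPM for 5 bile duct and progenitor genes, mostly KRT19, 11.8 to 13.6 and 13.4 to 19.7 CPM for 4 endothelial genes, 23.0 to 31.3 and 21.2 to 56.2 CPM for 5 fibroblast genes, mostly LUM, and 73.0 to 158 and 63.9 to 101 CPM for 4 leukocyte genes, mostly CD68. One of these genes was called, COL1A1, a fibroblast collagen, which fell by 2.08 on the log2 scale (edgeR adjusted p = 0.0108). The samples were cultures of a single line, so these markers give RNA levels in Hep3B cells and not the share of other cell types. A change in all cells and a change in part of them cannot be told apart in such bulk samples. The part of these marker levels in the Notch results was not tested.

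Across the whole table, 12839 genes passed the filter on low counts and edgeR's test called 480 of them (3.74%) at an adjusted p under 0.05. In sgRFX6 247 (1.92%) were higher and 233 (1.81%) were lower. Of the 10 Notch genes 9 passed the filter, 1 was called higher and 1 lower, and 7 were not called. The lower one, DLL3, had passed the filter only through the group where it was high, so the counts over the 9 genes are given as a description. Their log2 fold changes were positive in 4 and negative in 5, with a median of -0.13 against 0.02 over all tested genes. The 3 libraries of each group did not overlap for 4 of the 9, with 1 gene higher and 3 lower in sgRFX6. Over all tested genes the share without overlap was 12.0% higher and 11.2% lower. With 3 libraries against 3, an exact permutation test of a single gene cannot give a two-sided p below 0.1, so the calls rest on the fit across all genes.

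**Figure D1:**
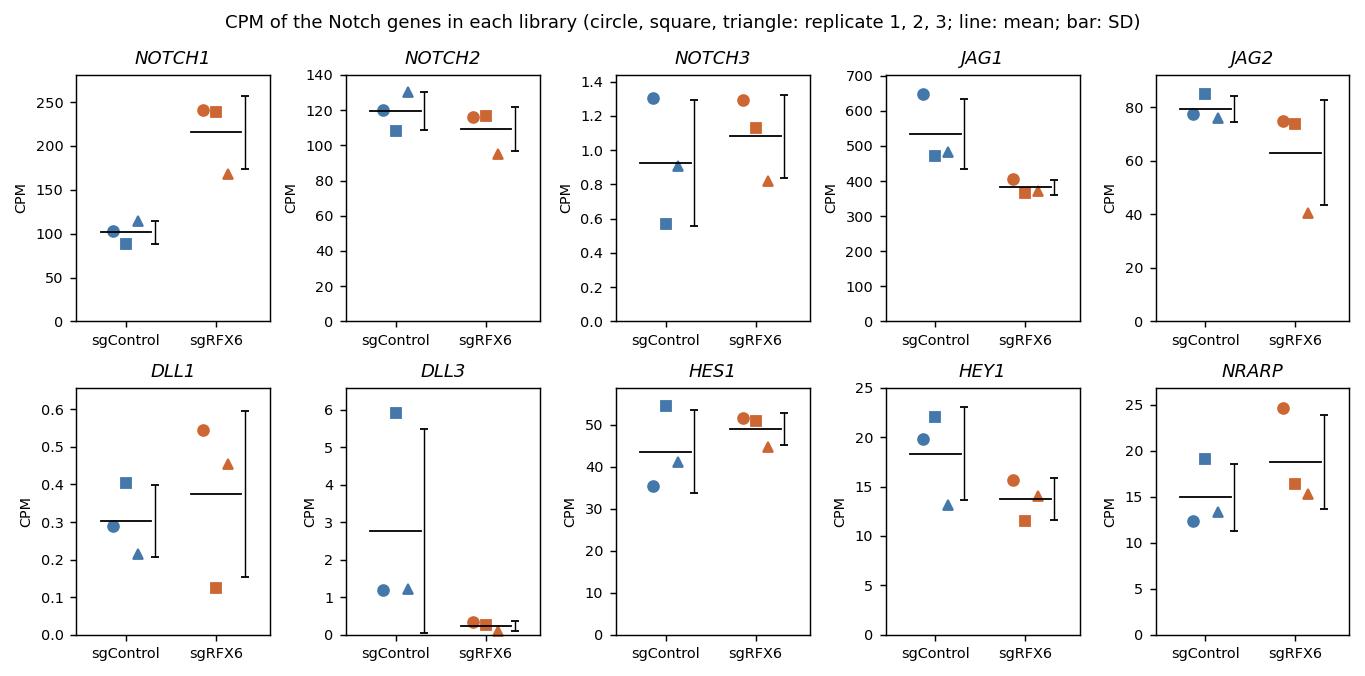
CPM of each of the 10 Notch genes (vertical axis, linear from 0, with its own scale per gene) in the sgControl and sgRFX6 libraries. Circles, squares and triangles are replicates 1, 2 and 3, the horizontal line is the mean and the bar the SD. NOTCH1 is higher in all 3 sgRFX6 libraries, and JAG1, JAG2 and DLL3 lie lower without overlap, for JAG2 by a narrow margin.

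NOTCH1 (chr9:136494433-136545786, minus strand) was the receptor that changed. Its level was 103, 88.0 and 114 CPM in sgControl libraries 1, 2 and 3, and 241, 238 and 168 CPM in the sgRFX6 libraries. All sgRFX6 libraries were above all sgControl libraries, and sgRFX6 library 3 was the closest to the control level. Mean levels were 102 ± 13.2 and 216 ± 41.4 CPM (SD, n = 3 each), and the log2 fold change was 1.09 (SE 0.20) with an adjusted p of 0.0194 in edgeR's test. The gene was counted 2128 to 4845 times per library, so counting error was small beside the spread between libraries. The call was made in 12 of 16 other settings. Leaving out one library at a time kept the log2 fold change between 0.99 and 1.24, but edgeR's adjusted p rose to 0.0713 without sgControl library 1, 0.0688 without sgControl library 2, 0.0929 without sgRFX6 library 1 and 0.0663 without sgRFX6 library 2. With the GC trend of each library taken out, the value was 1.09 with an adjusted p of 0.00656. Its 50 nearest tested neighbours on the chromosome had a median log2 fold change of -0.07.

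NOTCH2 (chr1:119911553-120069626, minus strand), the receptor of bile duct formation, was at 120.0, 108 and 130.2 CPM in sgControl and at 116, 117 and 94.8 CPM in sgRFX6. The groups overlapped, with means of 119.5 ± 10.9 and 109 ± 12.4 CPM (SD, n = 3 each) and a log2 fold change of -0.13 (SE 0.17, edgeR adjusted p = 0.803). Part of NOTCH2 has a near-identical copy, NOTCH2NL, which has its own row in the table at 19.7 to 23.6 CPM (edgeR adjusted p = 0.869), and reads shared by the pair could be counted on either. NOTCH3 (chr19:15159038-15200981, minus strand) was counted only 14 to 27 times per library. It was at 1.30, 0.567 and 0.907 CPM in sgControl and at 1.29, 1.13 and 0.818 CPM in sgRFX6, a log2 fold change of 0.23 (SE 0.42, edgeR adjusted p = 0.880) that changed sign to -0.035 without sgControl library 2. The remaining receptor of the family, NOTCH4, was counted 9 to 43 times and gave -0.91 (SE 0.50, edgeR adjusted p = 0.440), with overlapping groups.

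Because NOTCH1 and NOTCH2 were measured in the same libraries, their levels per kilobase of exon were also set against each other within each library. The ratio of NOTCH1 to NOTCH2 was 1.48, 1.40 and 1.52 in the sgControl libraries and 3.58, 3.53 and 3.06 in the sgRFX6 libraries. The libraries of the groups did not overlap, and the mean ratio was 1.46 ± 0.0572 in sgControl and 3.39 ± 0.291 in sgRFX6 (SD, n = 3 each). The ratio depends on the exon lengths of the annotation and on reads that NOTCH2 may share with NOTCH2NL. It was not corrected for the GC content of the transcripts, which was 62.9% for NOTCH1 and 49.4% for NOTCH2. In CPM, without division by length, NOTCH2 was above NOTCH1 in every sgControl library and below it in every sgRFX6 library.

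JAG1 (chr20:10637684-10673999, minus strand), the ligand of NOTCH2 in bile duct formation, was the most abundant of the 10 genes per kilobase. Its level was 649, 471 and 483 CPM in sgControl and 407, 367 and 372 CPM in sgRFX6. The highest sgRFX6 library lay below the lowest sgControl library, although sgControl library 1 stood well above the other two. Mean levels were 534 ± 99.7 and 382 ± 21.9 CPM (SD, n = 3 each), and the log2 fold change of -0.48 (SE 0.18) had an unadjusted p of 0.0273 and an adjusted p of 0.230 in edgeR's test. With limma-voom and sample quality weights, which count libraries that stand apart for less, the value was -0.39 (adjusted p = 0.0284), alone among 16 other settings in making a call. That setting called 3998 of all 12839 tested genes. JAG2 (chr14:105140981-105168824, minus strand), the second Jagged ligand, was at 77.4, 84.8 and 76.0 CPM in sgControl and at 75.0, 73.7 and 40.6 CPM in sgRFX6. The groups were separated only narrowly, and the lower mean of sgRFX6 (63.1 ± 19.5 against 79.4 ± 4.74 CPM, SD, n = 3 each) came largely from library 3, without which the log2 fold change went from -0.33 (SE 0.24, edgeR adjusted p = 0.593) to -0.09. With the GC trend of each library taken out, the log2 fold change of JAG2 was -0.35 (SE 0.13, edgeR adjusted p = 0.129). Exons of JAG2 share 469 bases with the non-coding gene AL512356.1 on the same strand.

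DLL3 (chr19:39498895-39508481, plus strand) is an unusual Delta-like protein that is known mainly from inside the cell, where it inhibits Notch, and from neuroendocrine tumours. It was at 1.20, 5.91 and 1.21 CPM in sgControl and at 0.348, 0.251 and 0.0908 CPM in sgRFX6. The groups did not overlap, but sgControl library 2 held several times the level of the other control libraries. Mean levels were 2.78 ± 2.72 and 0.230 ± 0.130 CPM (SD, n = 3 each), and the fitted log2 fold change was -3.59 (SE 0.81, edgeR adjusted p = 0.0478). Without sgControl library 2 it was -2.39 with an adjusted p of 0.0661. Of the 6 fits that left out one library, only that without sgControl library 1 made the call (adjusted p = 0.0283), and the others gave edgeR adjusted p-values of 0.0558 without sgControl library 3, 0.110 without sgRFX6 library 1, 0.123 without sgRFX6 library 2 and 0.0967 without sgRFX6 library 3. Over all 16 other settings the call was made in 7, with log2 fold changes from -4.05 to -1.99. The direction was the same in all of them, and the size of the fall rested on few counts.

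DLL1 (chr6:170282206-170306565, minus strand), a canonical activating ligand, was close to the floor of detection. It was counted 6, 10 and 5 times in sgControl and 11, 2 and 10 times in sgRFX6. It was not tested in this fit because it did not pass the filter on low counts. The groups overlapped. Of the other ligands on the list, DLL4 was counted 2 to 9 times per library, DNER 1 to 10 times and DLK1 0 to 18 times, the 18 of them in sgControl library 2, and none of these was tested. DLK2, which was tested, gave a log2 fold change of 0.00 (SE 0.40). Of the 4 tested ligands DLL3 was called, against 3.74% of all tested genes, and its passage of the filter through the high group makes this count a description.

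Ratios of ligand to ligand and ligand to receptor RNA per kilobase were taken in each library. They were not corrected for the GC content of the transcripts, which was 49.6% for JAG1, 64.0% for JAG2 and 62.9% for NOTCH1. JAG1 stood at 8.23, 5.45 and 6.25 times JAG2 in sgControl and at 5.33, 4.89 and 9.00 times in sgRFX6, so these ratios overlapped. The highest of each group were in sgControl library 1 and sgRFX6 library 3, where the GC correlation given above was -0.565 and -0.848. The part of GC content in these ratios was not tested. JAG1 stood at 9.92, 8.38 and 6.63 times NOTCH1 in sgControl and at 2.65, 2.41 and 3.47 times in sgRFX6. This ratio did not overlap between groups, and its mean was 8.31 ± 1.65 in sgControl and 2.84 ± 0.556 in sgRFX6 (SD, n = 3 each). It combines the higher NOTCH1 with the lower, uncalled JAG1.

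**Figure D2:**
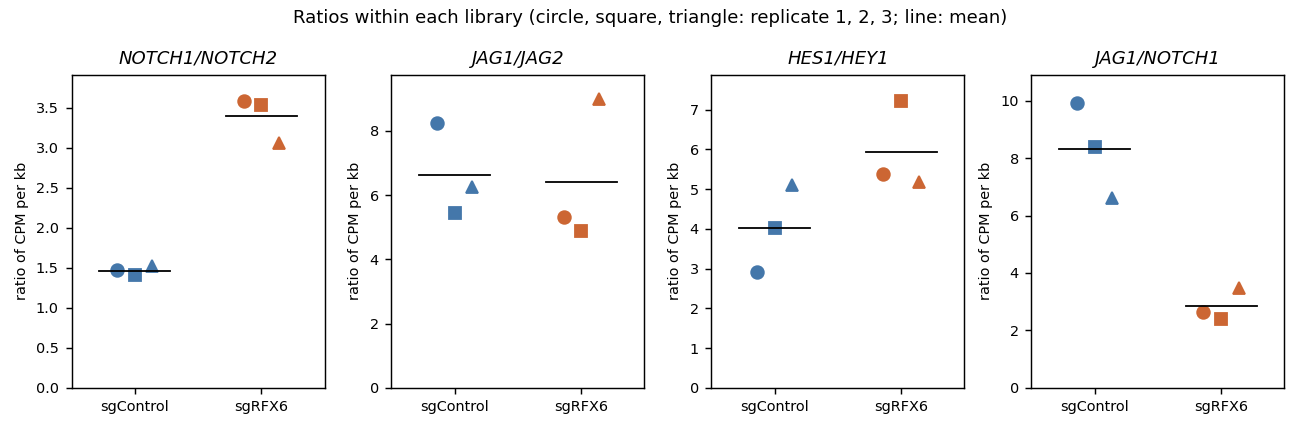
Ratios of CPM per kilobase of exon between gene pairs within each library (vertical axis, linear from 0). Circles, squares and triangles are replicates 1, 2 and 3 and the line is the mean. NOTCH1/NOTCH2 and HES1/HEY1 are higher and JAG1/NOTCH1 is lower in all sgRFX6 libraries, while JAG1/JAG2 overlaps.

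HES1 (chr3:194136145-194138732, plus strand), a transcriptional repressor and the standard readout of Notch activity, was at 35.4, 54.4 and 41.0 CPM in sgControl and at 51.6, 50.8 and 44.6 CPM in sgRFX6. The groups overlapped, and sgControl library 2 was the highest of all. Mean levels were 43.6 ± 9.77 and 49.0 ± 3.85 CPM (SD, n = 3 each), a log2 fold change of 0.17 (SE 0.21, edgeR adjusted p = 0.801). By limma-voom with quality weights the value was 0.35 (adjusted p = 0.0406), and the other 15 settings made no call. The limma-voom setting called 3998 of all 12839 tested genes. The SE leaves room for a change of moderate size in either direction.

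HEY1, on chromosome 8, a repressor of the HES-related family, was at 19.9, 22.1 and 13.1 CPM in sgControl and at 15.6, 11.5 and 14.1 CPM in sgRFX6. The groups overlapped (18.4 ± 4.66 and 13.7 ± 2.09 CPM, SD, n = 3 each), and the log2 fold change was -0.42 (SE 0.26, edgeR adjusted p = 0.523). NRARP (chr9:137300482-137302251, minus strand), a target gene whose protein binds the Notch complex and dampens it, was at 12.4, 19.1 and 13.3 CPM in sgControl and at 24.6, 16.4 and 15.3 CPM in sgRFX6. Its groups overlapped too (14.9 ± 3.62 and 18.8 ± 5.10 CPM, SD, n = 3 each), with a log2 fold change of 0.33 (SE 0.28, edgeR adjusted p = 0.662). Limma-voom with quality weights, which called 3998 of all 12839 tested genes, called NRARP at 0.74 (adjusted p = 0.00750). Per kilobase, HES1 stood at 2.91, 4.03 and 5.11 times HEY1 in sgControl and at 5.38, 7.22 and 5.17 times in sgRFX6, and the groups were separated by the narrow gap between 5.11 and 5.17.

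Of the 10 effectors on the list 6 were tested, and 0 were called in edgeR's test, with 0 at an unadjusted p under 0.05. Of all 12839 tested genes 3.74% were called, and 2000 had an unadjusted p under 0.05. Their log2 fold changes were positive in 3 and negative in 3, from -0.42 for HEY1 to 0.64 for HES4. HEY2, a relative of HEY1, was counted 0, 4 and 2 times in sgControl and 10, 10 and 9 times in sgRFX6. Its groups did not overlap, but it did not pass the filter and was not tested in this fit. HES5 was counted 0 to 6 times, HES7 0 to 35 times, the 35 of them in sgControl library 2, and HEYL 0 or 1 time.

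Per kilobase of exon, the 10 genes spanned from JAG1 at 89.9 CPM per kilobase to DLL1 at 0.0956 in sgControl. HES1 followed JAG1 at 27.6, JAG2 was at 13.6, NOTCH1 at 10.9, NRARP at 8.44, NOTCH2 at 7.43, HEY1 at 7.12, DLL3 at 1.15 and NOTCH3 at 0.107. The libraries of JAG1, HES1 and JAG2 did not overlap with their neighbours in this order, JAG2 and NOTCH1 did not overlap (13.0 to 14.5 against 9.45 to 12.3), and from NOTCH1 to HEY1 each gene overlapped with the next. In sgRFX6, NOTCH1 moved above JAG2, at 23.2 against 10.8 CPM per kilobase, and its 3 libraries (18.0 to 25.9) lay above those of JAG2 (6.95 to 12.8) and below those of HES1 (28.2 to 32.7). DLL3 dropped to the level of NOTCH3 and DLL1, the 3 at 0.0956, 0.125 and 0.118 CPM per kilobase with overlapping libraries. The low part of the order was thus a group of receptors and ligands that were barely detected in either condition, and DLL3 joined it in sgRFX6.

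The rest of the pathway was read from a list of 63 further genes, grouped by role, of which 62 were in the table and 52 passed the filter. In edgeR's test 1 was called higher and 1 lower, against 1.92% and 1.81% of all tested genes. The log2 fold changes were positive in 22 and negative in 30, with a median of -0.05. The groups did not overlap for 4 of the 52 that were higher and 8 that were lower, against 12.0% and 11.2% of all tested genes.

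Among the proteases that cut Notch, 1 of 9 was called, against 3.74% of all tested genes. FURIN (chr15:90868592-90883458, plus strand), the convertase that cleaves the Notch precursor in the Golgi and many other proproteins, was at 174, 213 and 157 CPM in sgControl and at 93.3, 75.7 and 59.0 CPM in sgRFX6. The groups lay far apart, with means of 181 ± 28.8 and 76.0 ± 17.2 CPM (SD, n = 3 each). FURIN fell by 1.25 on the log2 scale (SE 0.21, edgeR adjusted p = 0.0144), and the call was made in all 16 other settings, with log2 fold changes from -1.43 to -0.89. The ADAM proteases and the γ-secretase subunits made no call, with values from -0.41 for NCSTN to 0.16 for PSENEN.

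Among 13 tested genes of ligand endocytosis and receptor turnover, 1 was called, against 3.74% of all tested genes. DTX3L (chr3:122564238-122575203, plus strand), a Deltex-family ubiquitin ligase that is also known for its pairing with PARP9 in DNA repair and interferon responses, was at 12.1, 11.2 and 9.28 CPM in sgControl and at 24.4, 22.8 and 29.3 CPM in sgRFX6. It rose by 1.23 on the log2 scale (SE 0.22, edgeR adjusted p = 0.0192) without overlap of the groups. Its 50 nearest tested neighbours on chromosome 3 had a median log2 fold change of 0.49, and with that taken out the value of DTX3L was 0.74 with an adjusted p of 0.155. Its exons overlap those of PARP9 on the opposite strand over 217 bases, and PARP9 was at 3.13 to 3.73 CPM in sgControl and 5.28 to 6.40 CPM in sgRFX6 (edgeR adjusted p = 0.167). Whether reads were counted by strand is not given in the sources used here. The call was lost without sgControl library 1, 2 or 3 and without sgRFX6 library 1 (edgeR adjusted p = 0.0582, 0.0507, 0.122 and 0.0768). In this role 3 of 13 genes were higher and 3 lower without overlap, against 12.0% and 11.2% of all tested genes.

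The remaining roles held no call, against 3.74% of all tested genes. The 4 tested glycosyltransferases of Notch, which set its response to ligand, had a median of -0.16 on the log2 scale, the 9 genes of the nuclear complex and its co-activators had -0.06, and the 12 co-repressors had 0.02. RBPJ itself, the DNA-binding partner of Notch, was at 44.6, 38.4 and 35.1 CPM in sgControl and at 21.3, 15.7 and 44.2 CPM in sgRFX6. The groups overlapped through sgRFX6 library 3 alone, and the log2 fold change was -0.54 (SE 0.36, edgeR adjusted p = 0.548). Without that library it was -1.09 with an adjusted p of 0.0279 in edgeR's test. RBPJ was called in 3 of 16 other settings in all. Besides this one they were limma-voom with quality weights and the GC correction, which called 3998 and 1375 of all 12839 tested genes. MAML1, MAML2 and MAML3 gave -0.34, 0.10 and -0.61. The uncalled genes nearest to a call over the whole list are named after their values were seen. NEURL1, a ubiquitin ligase of the ligands from the role of ligand endocytosis, gave -1.64 (edgeR adjusted p = 0.0532). It was called in 7 of 16 other settings. The co-repressor TLE4 gave -1.21 (edgeR adjusted p = 0.0737) and was called in 3 of 16.

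**Figure D3:**
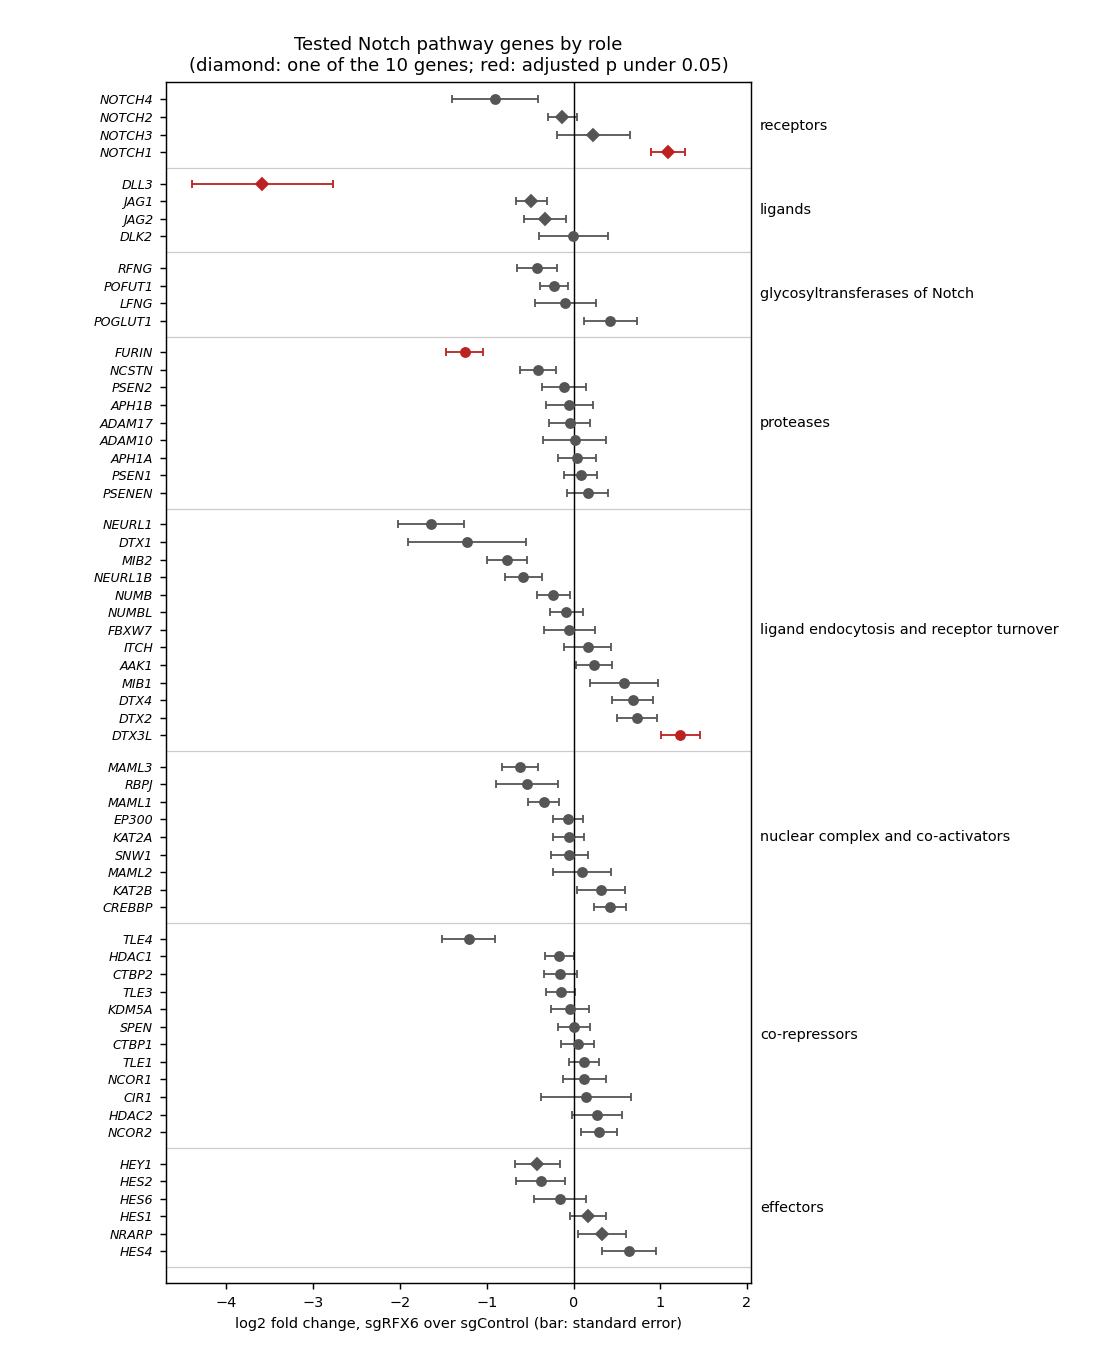
Log2 fold change of sgRFX6 over sgControl (horizontal axis) for the 61 tested pathway genes, grouped by role, with bars for the standard error. Diamonds are members of the set of 10 and red points have an adjusted p under 0.05 in edgeR's test, which are NOTCH1 and DTX3L on the higher side and DLL3 and FURIN on the lower side.

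The 4 called genes differed in how far the call depended on the setting. FURIN was called in 16 of 16 other settings, NOTCH1 in 12, DTX3L in 11 and DLL3 in 7. The direction of each was the same throughout.

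**Figure D4:**
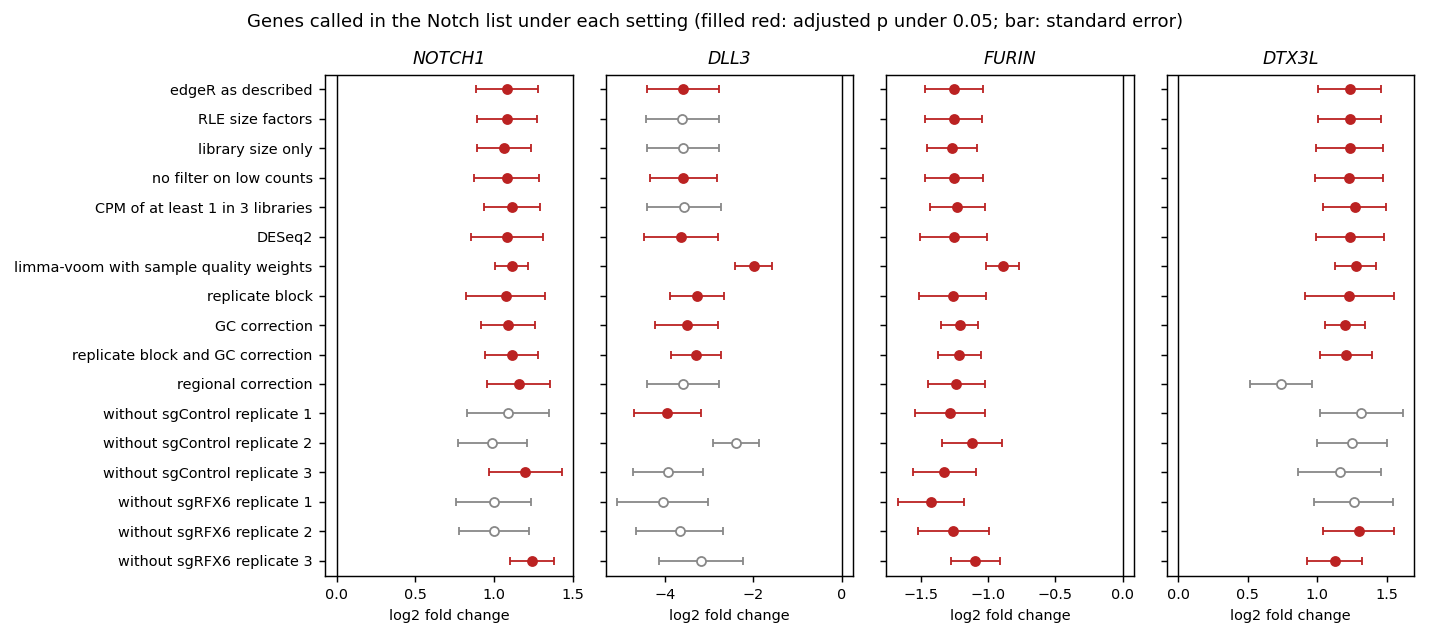
Log2 fold change (horizontal axis) with its standard error for NOTCH1, DLL3, FURIN and DTX3L in the edgeR fit and in 16 other settings (rows). Filled red points have an adjusted p under 0.05, and the vertical line marks 0. No point changes side, and DLL3 has the widest bars.

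By the smallest root mean square difference of centred log2 CPM over the 6 libraries, in log2 units, the tested genes most like NOTCH1 were ABCC1, a drug efflux transporter (0.0560), DDIT3, a transcription factor of the stress response (0.0727), and ABHD11 (0.0943). Those most like DLL3 were S1PR5, a sphingosine-1-phosphate receptor (0.257), STRA6, a retinol transporter (0.311), and HAAO, an enzyme of tryptophan breakdown (0.320). The differences were larger around DLL3, which was counted 2 to 146 times per library against 2128 to 4845 times for NOTCH1. Such differences grow with counting noise, so they do not compare how closely genes tracked each member.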

How the data were processed

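The authors extracted total RNA of Hep3B cells (Trizol), ran cDNA libraries on an Illumina platform and deposited raw counts per gene or assembled transcript for 3 sgControl and 3 sgRFX6 libraries. GRCh38 (hg38) is named in the submitters' processing notes. The aligner, the counting program, the annotation and the strand setting are not given in the sources used here. One row without a gene name, at most 9.17e-05% of a library, was left out.

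The counts were used as deposited, in edgeR 4.0.16 (R 4.3.3). Low genes were removed by filterByExpr (minimum count 10, minimum total 15), libraries were scaled by TMM, and the quasi-likelihood test compared the groups without covariates, with Benjamini-Hochberg adjustment over all 12839 tested genes and 0.05 as the threshold. The biological coefficient of variation common to all genes was 0.269. Single genes were also compared by a two-sided exact permutation test. Chi-square per degree of freedom between libraries of a group was 17.0 to 124, so none was counted as a copy.

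Positions, exon lengths and GC content came from GENCODE 29, which may differ from the annotation behind the counts. It held 15422 of the 16721 row names, and 261 more through another symbol. Alternatives were RLE factors, library size only, no filter, a CPM of at least 1 in 3 libraries, DESeq2 1.42.0, limma-voom (limma 3.58.1) with sample quality weights, the replicate number as a block, a smooth GC correction (span 0.3), both together, a correction for the median of the nearest 50 tested genes, and each library left out in turn. The fit was tested on simulated data.

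The named genes are RFX6, the 10 Notch genes, other listed pathway genes with an adjusted p under 0.05, the receptors, ligands and effectors that were not tested, and the 3 genes most like each called member. Other genes were named for an overlap, a shared role or after their values were seen. The members and lists were chosen with earlier results of these data known.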

Additional observations from a re-analysis of the deposited data

How the results depend on the processing

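Genes called over the whole table numbered 480 by edgeR as described, 895 by DESeq2, 3998 by limma-voom with sample quality weights, 1375 with the GC correction, 817 with the replicate block and GC correction, and 212 to 718 when one library was left out (lowest without sgControl library 3, highest without sgRFX6 library 3). Of the 10 Notch genes, 2 were called as described, 1 with RLE size factors, library size only, a CPM of at least 1 in 3 libraries or the regional correction, which each lost DLL3, 5 by limma-voom (adding HES1, JAG1 and NRARP), and 0 to 1 when one library was left out. Of the other pathway genes, 2 were called as described, 5 by DESeq2, 12 by limma-voom, 9 with the GC correction, 5 with the replicate block and GC correction, 1 with the regional correction, and 1 to 4 when one library was left out. RFX6 gave -0.96 (adjusted p = 0.00274) by limma-voom and -0.85 (adjusted p = 0.0486) with the GC correction, which called it, and no other setting did. NOTCH3 lay between -0.035 and 0.55 when one library was left out, and its sign reversed to -0.035 without sgControl library 2. The cause of these shifts was not tested, except that fits without one library have fewer samples. No setting moved the median log2 fold change of all genes by over 0.1.

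The sources used here state no pairing of libraries by replicate number. Deviations of libraries with the same number correlated at -0.41, 0.17 and -0.087, and no library correlated best with its own number. In most libraries the deviations also followed GC content, so these correlations cannot decide whether libraries were prepared in pairs. With the number as a block, 648 genes were called, 2 of the 10 Notch genes among them (NOTCH1 at 1.08 and DLL3 at -3.27), and 3 of the other pathway genes, and RFX6 was not called. DLL1, at 2 to 11 counts per library, was not tested.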
